A study of Drosophila melanogaster with 12 samples.

Results

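The effect of an amos mutation on the fly antenna was compared between adult antennae and third-instar larval antennal discs, gene by gene, as the difference between 2 log2 fold changes, each of amos over wild type. This difference is the genotype by stage interaction, and all 12 RNA-seq libraries of the series enter it, 3 in each of 4 groups. The groups were amos mutant antennae of adults up to 4 h old, wild-type antennae of the same age, antennal discs of amos mutant larvae, and wild-type antennal discs. The mutants carried the amos3 allele and the wild type was the w1118 strain, both kept at 22 °C. Adult samples pooled about 300 antennae of mixed sexes and disc samples about 50 discs. A positive difference means that the amos effect was higher in adult antennae than in discs, a negative one that it was lower.

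amos encodes a proneural basic helix-loop-helix transcription factor that starts the sensory lineages of most olfactory sensilla on the third antennal segment. The neurons of these sensilla use receptors of the Or family with the co-receptor Orco, whereas coeloconic sensilla, the sacculus and the arista house neurons with ionotropic receptors (Irs) and depend on another proneural gene, ato. In the larva the antennal disc is still a dividing, patterned epithelium in which sensory precursors are being set aside through Notch signalling, and few cells have begun to differentiate. Adult antennae hold finished neurons, support cells, glia and cuticle.

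amos itself had 0, 0 and 0 reads in amos antennae, against 2, 1 and 1 in wild-type antennae, and 0, 0 and 3 reads in amos discs, against 2, 0 and 0 in wild-type discs, too few to check the labels. Orco, which marks the Or neurons, was at 105, 129 and 66.8 CPM (read counts relative to the scaled size of the library) in amos antennae and at 3353, 3135 and 3005 CPM in wild-type antennae. w, the eye pigment gene deleted in w1118, was at 3.22, 3.02 and 3.20 CPM in amos antennae, against 0, 0.0418 and 0 CPM in wild-type antennae, and at 2.93, 3.95 and 2.75 CPM in amos discs, against 0.0326, 0 and 0.163 CPM in wild-type discs. Map205, a microtubule-associated protein gene, was at 0, 0.157 and 0 CPM in amos antennae, against 50.2, 50.1 and 54.8 CPM in wild-type antennae, and at 0 CPM in every amos disc library, against 451, 433 and 336 CPM in wild-type discs. So the strains differed at w and Map205 as well as at amos, and an amos effect, here always amos over wild type, cannot be told apart from an effect of the strain background.

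Depth was higher in the mutants at both stages, with 36396746 to 50252338 reads on genes in amos antennae, 25150198 to 25721392 in wild-type antennae, 39247300 to 43984887 in amos discs and 26796503 to 27661261 in wild-type discs, so depth and genotype cannot be told apart. Replicates spread least in wild-type antennae (biological coefficient of variation 6.6%) and most in wild-type discs (32.2%), with 18.1% in amos antennae and 20.4% in amos discs. One library stood apart. Wild-type disc 5 had 20.4% of its alignments at more than 1 place, against 14.0 to 15.3% in the other 5 disc libraries, and the summed level of 4 muscle markers (Mhc, Mlc2, Act57B and up) was 802 CPM there, against 93.7 and 113 CPM in the other wild-type discs and 50.3 to 65.1 CPM in amos discs. Other tissues also differed between libraries. The glue genes Sgs3 and Sgs4, which salivary glands express, summed to 157 to 199 CPM in amos discs and 7.48 to 40.2 CPM in wild-type discs, 6 fat body and haemocyte markers reached 3720 CPM in wild-type disc 2 against 123 and 363 CPM in wild-type discs 1 and 5, and 6 eye field genes summed to 146 to 184 CPM in amos discs and 262 to 351 CPM in wild-type discs. The 5 sex-biased markers (3 yolk protein genes, roX1 and roX2) summed to 214 to 401 CPM in amos antennae and 553 to 711 CPM in wild-type antennae, and to 173 to 483 CPM in amos discs and 404 to 968 CPM in wild-type discs. Most of each sum was roX1. In antennae roX2 overlapped, at 47, 36.4 and 25.8 CPM in amos and 28, 33 and 34.6 CPM in wild type. Of 4 sex-biased genes measured at both stages (Sxl, tra, roX1 and roX2), none had a called amos effect at either stage. In adults the same 4 muscle markers summed to 100 to 224 CPM in amos antennae and 4.40 to 93 CPM in wild-type antennae. Of 5 genes of the antennal disc (Dll, ss, dan, danr and hth), which summed to 1240 to 1400 CPM in amos discs and 1110 to 1400 CPM in wild-type discs, hth, which is also expressed in other tissues, made up most. The more restricted dan was at 63.1 to 77.5 CPM in amos discs and 64.2, 72.2 and 28.2 CPM in wild-type discs, and danr at 84 to 104 CPM in amos discs and 88, 87.5 and 47 CPM in wild-type discs, lowest in wild-type disc 5 in both cases. The part of these tissues in the results below was not tested, and values without wild-type disc 5 stand beside several of them.

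Of 10319 genes tested, 2302 (22.3%) had a genotype by stage interaction at an adjusted p below 0.05 (edgeR quasi-likelihood test, Benjamini-Hochberg), 1470 (14.2%) with a higher and 832 (8.06%) with a lower amos effect in adult antennae than in discs. In the same fit the amos effect itself was called for 3974 genes (38.5%) in adult antennae and for 2060 (20%) in discs, 993 of these higher in amos (9.62%) and 1067 lower (10.3%). The split by direction rests on the libraries and on the scaling. The higher share of the interaction calls was 63.9%, but 48.1% without wild-type disc 5 and 88.1% when libraries were scaled to their ribosomal protein reads, which moved the median difference over all genes to 0.35, against 0.07 on the log2 scale. The drop was not particular to wild-type disc 5. Without any single other disc library the share was 51.3 to 56.5%, and without any single adult library 63.5 to 66.9%. The share of calls higher in amos was 60.2% in antennae and 48.2% in discs, against 51.1% and 57.4% without wild-type disc 5 and 77.2% and 25.5% with ribosomal protein scaling. Without any single other disc library these shares were 50.5 to 51.3% and 45.5 to 55.1%. Without wild-type disc 5 the interaction was called for 2409 genes, and 1878 genes were shared, 81.6% of the 2302 and 78% of the 2409. With the replicate number as a block the interaction was called for 1045 genes. The named genes that lost the call with this block, and a limit of that fit, are given where the dependence on processing is described. These are bulk samples, in which fewer cells of a type and less RNA per cell cannot be told apart.

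To ask which genes were affected in 1 stage only, the 7605 genes with a mean of at least 1 CPM in amos or wild type at both stages were used, of which 1953 (25.7%) had a called interaction, 1239 higher (16.3%) and 714 lower (9.39%). Among them the amos effect was called for 3033 (39.9%) in antennae and 1711 (22.5%) in discs. A gene was put under adult antennae only when its amos effect was called there, was not called in discs, and had a 95% interval in discs that lay within a 2-fold change either way. The rule for discs only was the mirror image. By these rules 994 genes (13.1%) were affected in adult antennae only, 636 of them higher in amos (8.36%) and 358 lower (4.71%), and 313 genes (4.12%) in discs only, 145 higher (1.91%) and 168 lower (2.21%). A further 241 genes (3.17%) were called at both stages in opposite directions, 158 of them higher in amos antennae and lower in amos discs (2.08%) and 83 the reverse (1.09%). Another 131 (1.72%) moved in the same direction by unequal amounts, and for the remaining 274 (3.6%) the interval of the stage without a call was too wide to place them. The median absolute log2 effect of the adult-only genes was 0.64 in antennae against 0.13 in discs, and that of the disc-only genes was 0.58 in discs against 0.15 in antennae. Counting also genes whose effect in the other stage passed the test but stayed within 2-fold, 1211 genes fell under antennae and 451 under discs. The higher share of these was 63.3% for antennae, 47.2% for discs and 65.6% for opposite directions (by the adult effect), against 48.1%, 62.2% and 47.8% without wild-type disc 5 and 91.6%, 8.65% and 93.5% with ribosomal protein scaling. Without any single other disc library these shares were 48.3 to 51.2%, 51.3 to 63.4% and 47.5 to 58.8%.

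**Figure D1:**
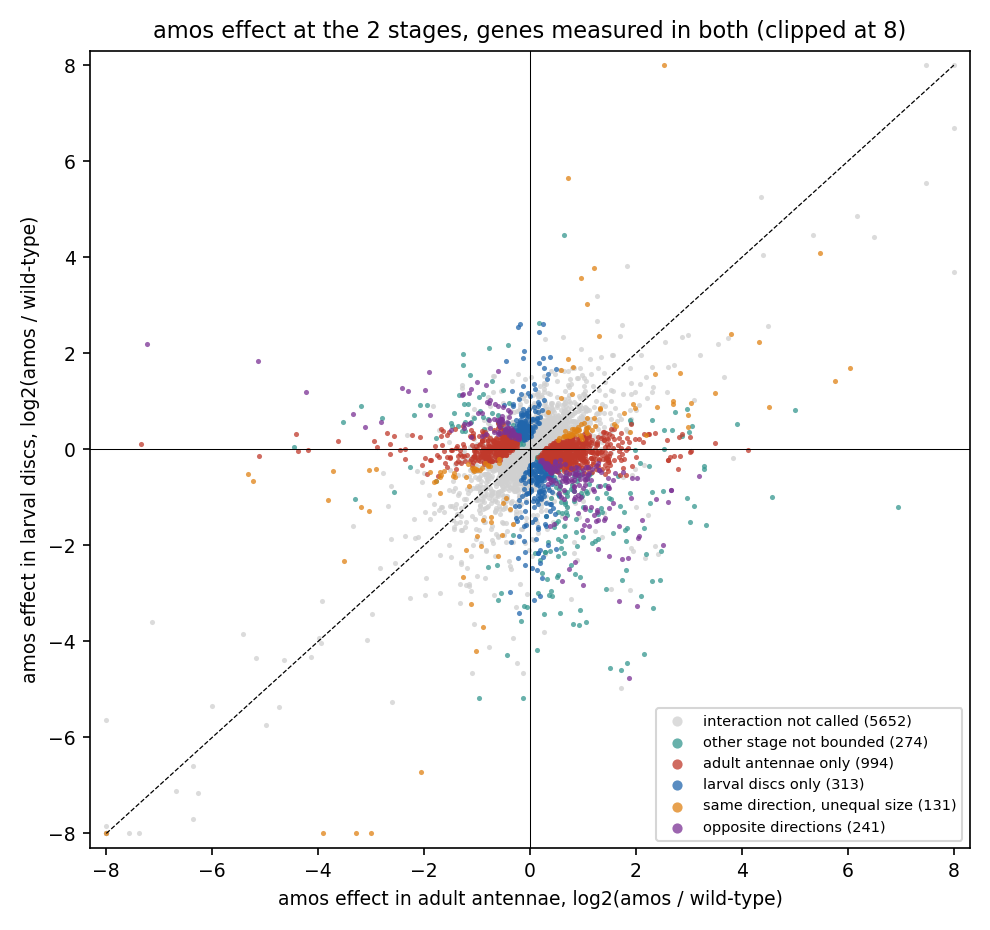
Each point is one of the 7605 genes measured at both stages, with its amos effect in adult antennae on the x axis and in larval discs on the y axis, both as log2(amos / wild-type), and values beyond 8 drawn at 8. Colours give the classes, with 994 genes along the horizontal axis (adult antennae only), 313 along the vertical axis (discs only) and 241 in the upper left and lower right quadrants (opposite directions).

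The adult-only genes with the lowest differences were far lower in amos antennae and had no called effect in discs. Cpr12A, a cuticle protein gene, was at 0.120, 0.112 and 0.122 CPM in amos antennae and at 18.7, 21.0 and 19.5 CPM in wild-type antennae. In discs its levels overlapped, at 4.33, 5.62 and 5.87 CPM in amos and 6.75, 3.87 and 4.06 CPM in wild type, and the difference of the 2 effects was -7.45 ± 0.39 (SE, adjusted p = 1.06e-06). The head patterning gene btd, which encodes a zinc-finger transcription factor, showed the same pattern, with 1.05, 0.873 and 0.548 CPM in amos antennae and 18, 17.0 and 16.6 CPM in wild-type antennae. Its disc levels were 15.5, 17.3 and 17.7 CPM in amos and 18.7, 15.2 and 17.7 CPM in wild type (difference -4.34 ± 0.25).

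Or43b was the only odorant receptor gene with an adult-only effect among 3 measured at both stages. It was at 4.63 to 6.51 CPM in the 3 amos antennae libraries, against 105, 96.5 and 112 CPM in wild-type antennae, and at 8.71, 9.16 and 9.16 CPM in amos discs, against 9.95, 8.21 and 9.30 CPM in wild-type discs (difference -4.16 ± 0.17, adjusted p = 8.13e-07). Of the 60 odorant receptor genes matched, 48 were tested and 39 fell in amos antennae, beside 15.3% of all genes tested. In every disc library 31 had 3 or fewer reads, so a disc effect was not detectable for them at this depth. NT1, a neurotrophin gene, had a difference of -4.73 ± 0.62, with 0.181, 0.112 and 0.335 CPM in amos antennae against 4.54, 4.18 and 4.32 CPM in wild-type antennae, and 30 to 85.0 CPM over the disc libraries of both genotypes. CG32104 completed the 5 genes with the lowest differences (-3.79 ± 0.16).

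In the other direction, Prx6a, a peroxiredoxin gene, was at 553, 511 and 642 CPM in amos antennae and at 69.2, 69.8 and 71.6 CPM in wild-type antennae, without overlap. Its disc levels were 33.4, 28.8 and 29.1 CPM in amos and 31.4, 28.6 and 35.7 CPM in wild type, and the difference was 3.08 ± 0.15 (adjusted p = 1.06e-06). The long non-coding RNA lncRNA:CR32111 had the highest difference of the adult-only genes that met this rule, 4.13 ± 0.29. It was at 8.43, 7.50 and 7.00 CPM in amos antennae against 0.421, 0.586 and 0.302 CPM in wild-type antennae. mtg, an extracellular matrix gene of synapses, the receptor gene mthl5 and the chromatin remodeller gene Chd3 followed, with differences of 3.21 ± 0.20, 3.07 ± 0.21 and 3.35 ± 0.46. Without wild-type antenna 5 that of Chd3 was 4.07.

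**Figure D2:**
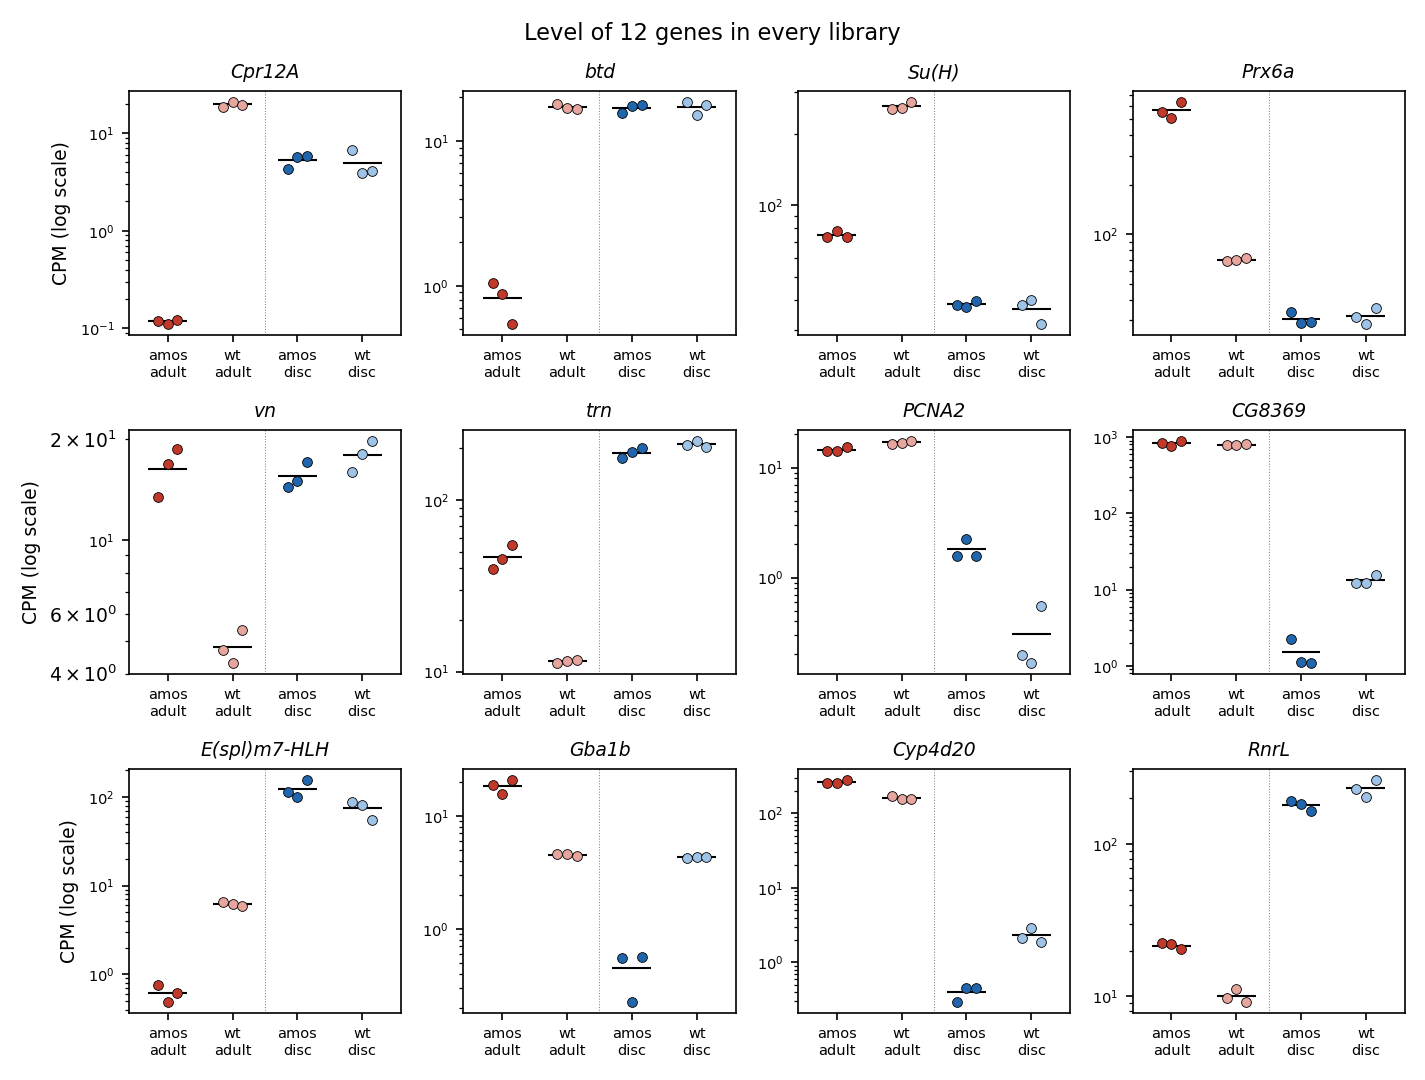
Level of 12 genes in each of the 12 libraries, as CPM on log axes that do not start at 0, with amos left of wild type at each stage. Points are libraries and bars are group means, and the top row and vn show genes whose genotypes separate in antennae and overlap in discs. For trn the gap is wider in antennae, for PCNA2 and CG8369 in discs, and the genotypes of the bottom row separate in opposite directions.

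The lists of subsystem genes from the study's microarray screen, which compared amos with ato mutant antennae in other samples, were taken as they stand. Of 78 genes of its Ir list measured at both stages, 51 (65.4%) had a called interaction, 50 of them higher and 1 lower, against 25.7% of all 7605 genes. The median amos effect of the list was 1.44 in antennae and 0.15 in discs, against 0.08 and 0.01 over all genes, and 24 members were affected in adult antennae only and 9 in opposite directions. Of 62 genes of the Or list 34 (54.8%) were called, 31 lower and 3 higher, with median effects of -2.72 in antennae and -0.90 in discs, and 15 fell in adult antennae only. Without wild-type disc 5 the median disc effect of the Or list was -0.39 and its median difference -1.47, against -0.98 with it. Because these lists were chosen on adult antennae, their adult direction is no independent result. The directions of both lists held under each scaling tried.

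Some markers of these subsystems were far lower in amos at both stages and had no called interaction. Orco was at 0.0229, 0.0414 and 0.0216 CPM in amos discs and 1.24, 1.95 and 2.05 CPM in wild-type discs, a disc effect of -5.75 ± 0.89 beside an adult effect of -4.98 ± 0.21 (difference 0.77 ± 0.92, adjusted p = 0.464). lush, an odorant-binding protein gene of trichoid sensilla, gave -7.16 ± 0.78 in discs and -6.27 ± 0.13 in antennae (difference 0.89 ± 0.79, adjusted p = 0.325). The wild-type disc level was 0.0552% of the wild-type antennal level for Orco and 0.0653% for lush, and lay between 0.0544 and 0.0653% for 7 antennal genes chosen after their values were seen (Orco, lush, Jhedup, GstE4, Snmp1, Obp59a and Amt), of which Obp59a and Amt were higher in amos at both stages. Of the 7605 genes, 192 had a level in the lower stage under 1% of that in the higher one, 62 of them with a called interaction, and the source of these few reads was not tested.

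**Figure D3:**
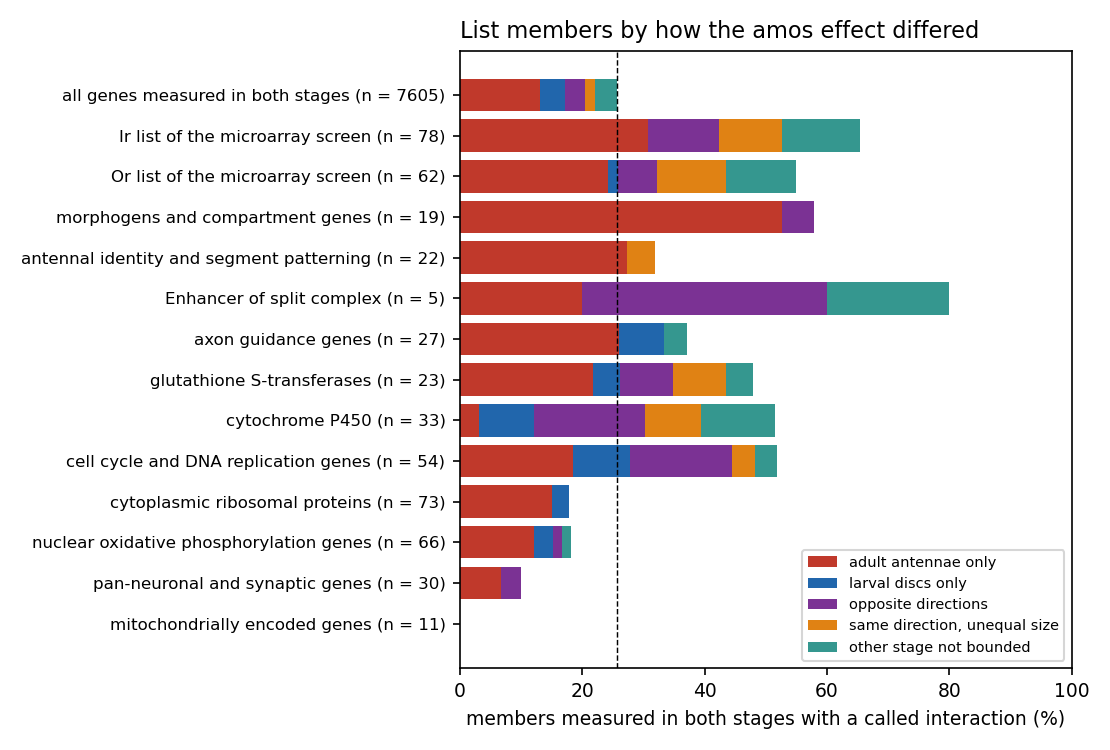
Percentage of list members measured at both stages that had a called interaction, split by class, for 13 lists and for all 7605 genes (top bar and dashed line, 25.7%), where n is the number of members measured at both stages. Adult only is the largest class in the bars of the Ir list, the Or list and the patterning lists, and the cytochrome P450 and cell cycle bars hold larger shares of disc only and opposite directions.

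Among genes that pattern the disc, most called interactions were adult only. Of 19 morphogen and compartment genes measured at both stages, 11 (57.9%) had a called interaction, beside 25.7% of all genes, 8 higher and 3 lower (16.3% and 9.39% of all genes). Of these, 10 were affected in adult antennae only (13.1% of all genes), while in discs inv was the sole member called. The same counts were found without wild-type disc 5. vn, a ligand of the epidermal growth factor receptor, was at 13.4, 16.9 and 18.6 CPM in amos antennae and at 4.71, 4.31 and 5.39 CPM in wild-type antennae, and at 14.4, 15 and 17.1 CPM in amos discs against 15.9, 18.1 and 19.8 CPM in wild-type discs (difference 1.97 ± 0.21, adjusted p = 0.000125). So vn separated the genotypes in antennae and overlapped between them in discs.

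The BMP ligand gene dpp rose in amos antennae to 23.2, 19.9 and 26.4 CPM, against 11, 12.1 and 10.8 CPM in wild-type antennae, with 60.9 to 75.8 CPM over all disc libraries (difference 0.86 ± 0.15). The Frizzled-family receptor gene fz3 was at 298, 345 and 357 CPM in amos antennae, against 148, 133 and 134 CPM in wild-type antennae (difference 1.12 ± 0.15). inv, an engrailed-family homeobox gene of the posterior compartment, went the other way in each stage, with 23.8, 28.1 and 23.8 CPM in amos antennae against 35.2, 34.3 and 33.7 CPM in wild-type antennae, and 68.3, 70.6 and 73.4 CPM in amos discs against 58.7, 56.1 and 51.6 CPM in wild-type discs. Its difference of -0.80 ± 0.12 was no longer called with ribosomal protein scaling.

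Of 22 antennal identity and segment patterning genes, 7 (31.8%) were called, a share near the 25.7% of all genes, and 6 were affected in adult antennae only. Of the 7, 5 were higher and 2 lower, or 4 and 3 without wild-type disc 5. The Spalt zinc-finger genes salm and salr, which pattern the antenna and other appendages, both rose in amos antennae. salm was at 13.7, 18.6 and 19.4 CPM in amos antennae against 5.59, 6.19 and 6.08 CPM in wild-type antennae (difference 1.11 ± 0.20), and salr at 18.8, 24 and 20.9 CPM against 10.6, 8.70 and 9.62 CPM (difference 1.49 ± 0.17). The LIM-homeobox gene Lim1 gave a difference of 1.19 ± 0.26. dac, which marks the intermediate antennal segment and is also expressed in the eye field, fell at both stages, more in antennae. It was at 5.00, 4.23 and 2.77 CPM in amos antennae against 35.2, 39.7 and 34.6 CPM in wild-type antennae, and at 26.1, 43.1 and 29.9 CPM in amos discs against 57.2, 80.3 and 89.8 CPM in wild-type discs (difference -1.99 ± 0.34). The summed eye field markers given above were also lower in amos discs, and their part in the value of dac was not tested.

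Several Notch pathway genes fell in amos antennae and did not fall in amos discs. In discs the Enhancer of split genes, bHLH and Bearded-family products that Notch signalling switches on, mark cells next to sensory precursors. Of the 5 measured at both stages 4 were called, beside 25.7% of all genes. All 4 were lower in the adult relative to the disc (9.39% of all genes), and 3 of those rose in amos discs (11.4% of all genes). E(spl)m7-HLH was at 0.753, 0.492 and 0.609 CPM in amos antennae and at 6.52, 6.23 and 5.91 CPM in wild-type antennae, but at 114, 99.5 and 157 CPM in amos discs and 87.7, 81.1 and 55.0 CPM in wild-type discs (difference -4.07 ± 0.34, adjusted p = 1.92e-05). The genotypes did not overlap at either stage and stood in opposite order, which the rule that named this gene by class required.

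E(spl)m3-HLH differed in antennae alone, with 4.46, 3.20 and 4.48 CPM in amos against 24.1, 24.4 and 27.4 CPM in wild type, and 64.6 to 90.5 CPM over the disc libraries (difference -2.75 ± 0.20). E(spl)m2-BFM was called at both stages in opposite directions (adult effect -0.99 ± 0.26, disc effect 0.75 ± 0.24). Su(H), the transcription factor of the pathway, which also acts in the socket cell of sensory organs, was at 73.3, 78.2 and 73.5 CPM in amos antennae against 255, 256 and 273 CPM in wild-type antennae. In discs it was at 38.2, 37.5 and 39.7 CPM in amos and 38.0, 39.8 and 31.8 CPM in wild type (difference -1.87 ± 0.12, adjusted p = 5.15e-06). numb, which encodes an inhibitor of Notch segregated at precursor divisions, fell in antennae only (difference -0.87 ± 0.15), a call lost with ribosomal protein scaling. insc, which orients those divisions, rose in antennae only, with 14.2, 15.3 and 13.9 CPM in amos against 6.06, 5.44 and 5.35 CPM in wild type (difference 1.48 ± 0.22).

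Of 27 axon guidance genes measured at both stages 10 (37%) were called, beside 25.7% of all genes, 6 higher and 4 lower, 7 of them in adult antennae only and 2 in discs only. Without wild-type disc 5 there were 12 calls, 5 higher and 7 lower. trn, a leucine-rich repeat surface protein gene, was at 39.4, 45.1 and 54.4 CPM in amos antennae against 11.3, 11.6 and 11.7 CPM in wild-type antennae, and at 176, 191 and 199 CPM in amos discs against 209, 221 and 204 CPM in wild-type discs (difference 2.17 ± 0.15, adjusted p = 8.3e-06). Its paralogue caps was at 137, 179 and 250 CPM in amos antennae and 74.6, 67.3 and 78.7 CPM in wild-type antennae (difference 1.39 ± 0.24). robo2, a receptor for the repellent Slit, gave 1.51 ± 0.16. The median difference of the list was -0.06, and 0.25 with ribosomal protein scaling, so these genes shared no direction.

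Of 30 pan-neuronal and synaptic genes measured at both stages 3 (10%) were called, beside 25.7% of all genes, and 7 (23.3%) without wild-type disc 5. elav, a neuronal RNA-binding protein gene, was at 99.6, 108 and 91.7 CPM in amos antennae against 177, 191 and 192 CPM in wild-type antennae, while its disc levels of 46.4, 42.3 and 36.5 CPM in amos and 35.6, 48.1 and 45.3 CPM in wild type overlapped (difference -0.86 ± 0.17). This call was lost with ribosomal protein scaling and with the replicate number as a block. comt, which encodes the fusion factor NSF, was 1 of the opposite-direction genes (difference 0.84 ± 0.16). The wild-type disc median of the list was 5.24 CPM, against 176 CPM in wild-type antennae, and 10 of the 30 were below 1% of their antennal level in discs.

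Glial genes were called for 6 of 15 (40%), beside 25.7% of all genes, 4 higher and 2 lower, and for 7 without wild-type disc 5. The GABA transporter gene Gat was at 52.1, 57.9 and 51.8 CPM in amos antennae against 125, 129 and 132 CPM in wild-type antennae, and at 4.08, 3.83 and 4.70 CPM in amos discs against 3.03, 3.10 and 2.57 CPM in wild-type discs, opposite directions without overlap (difference -1.79 ± 0.14). Cont, a septate junction protein gene, rose in antennae only (difference 0.91 ± 0.13). loco, a regulator of G-protein signalling in glia, fell in antennae only (difference -0.76 ± 0.12), a call lost with ribosomal protein scaling. The 3 glial markers repo, nrv2 and moody summed to 1110 to 1310 CPM in amos antennae and 1100 to 1210 CPM in wild-type antennae, and to 214 to 234 CPM in amos discs and 249 to 335 CPM in wild-type discs. Most of each sum was nrv2. In antennae repo was lower in amos, at 21, 22 and 24 CPM against 26.6, 29.6 and 30.3 CPM in wild type. The levels of moody overlapped, at 157, 145 and 156 CPM in amos antennae and 130, 140 and 152 CPM in wild-type antennae.

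The disc-only genes were led by genes with far lower levels in discs than in antennae. CG8369 was at 847, 770 and 898 CPM in amos antennae and 789, 796 and 799 CPM in wild-type antennae, but at 2.27, 1.14 and 1.10 CPM in amos discs and 12.3, 12.0 and 15.3 CPM in wild-type discs (difference 3.22 ± 0.29, adjusted p = 4.47e-05). The genotypes overlapped in antennae and were apart in discs. CG6426 had a difference of 3.20 ± 0.49, or 2.61 without wild-type disc 5, and the transporter gene Sln one of 2.58 ± 0.29. Bbd, with 0.665, 0.310 and 1.58 CPM in amos discs against 2.97, 7.4 and 4.26 CPM in wild-type discs, had 2.65 ± 0.59, or 3.37 without amos disc 3. FBgn0259225, for which the annotation used gave no symbol, was the fifth gene by the same rule.

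Genes higher in amos discs only included PCNA2, a paralogue of the replication clamp gene PCNA, at 1.58, 2.25 and 1.56 CPM in amos discs against 0.196, 0.168 and 0.552 CPM in wild-type discs. It was at 14.0, 14.1 and 15.4 CPM in amos antennae and 16.5, 16.8 and 17.6 CPM in wild-type antennae, an adult effect of -0.22 ± 0.26 (difference -2.76 ± 0.44, or -3.60 without wild-type disc 5). CG31997 was at 135, 102 and 107 CPM in amos discs against 22.4, 24.7 and 16.5 CPM in wild-type discs, and at 296 to 400 CPM over the antennae of both genotypes (difference -2.26 ± 0.22, adjusted p = 7.23e-05). CG13516 and CG5281 followed with -2.36 ± 0.25 and -2.81 ± 0.26. The esterase gene alpha-Est10 was at 8.09, 9.33 and 16.4 CPM in amos discs against 3.26, 3.20 and 2.99 CPM in wild-type discs (difference -2.29 ± 0.30). For each of these 5 genes every amos disc library was above every wild-type disc library, which the rule that named them required.

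Some genes of DNA replication and the cell cycle were called lower in amos discs, others were called higher in amos antennae, and a few were called in both ways. Of 54 measured at both stages 28 (51.9%) had a called interaction, beside 25.7% of all genes, 26 higher and 2 lower (16.3% and 9.39% of all genes). The median amos effect was 0.24 in antennae and -0.34 in discs, against 0.08 and 0.01 over all genes, and 22 members were called higher and 5 lower in antennae (25% and 14.8% of all genes) and 24 lower in discs (11.1% of all genes). By class, 10 were adult only, 5 disc only and 9 opposite, and those 9 included subunits of the MCM helicase, of DNA polymerase alpha-primase and of ribonucleotide reductase. The wild-type median of the list was 5.59 CPM in antennae and 90.4 CPM in discs.

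RnrL, the large subunit of ribonucleotide reductase, was at 22.3, 21.9 and 20.5 CPM in amos antennae and 9.80, 11.1 and 9.23 CPM in wild-type antennae, and at 190, 183 and 165 CPM in amos discs and 229, 202 and 265 CPM in wild-type discs (difference 1.47 ± 0.15, adjusted p = 0.000105). PolA1, the catalytic subunit of polymerase alpha, was at 6.32, 7.12 and 6.85 CPM in amos antennae against 2.06, 2.34 and 1.64 CPM in wild-type antennae, with 78.7, 83.8 and 73.5 CPM in amos discs against 104, 95.4 and 129 CPM in wild-type discs (difference 2.22 ± 0.20). The helicase gene Mcm7 had a difference of 1.72 ± 0.22. The highest wild-type disc value of RnrL, PolA1 and Mcm7 was in each case that of wild-type disc 5. BubR1, a spindle checkpoint kinase gene, was affected in antennae only, at 7.29, 7.16 and 5.63 CPM in amos and 1.05, 1.25 and 0.992 CPM in wild type (difference 2.82 ± 0.16). dap, an inhibitor of cyclin E kinase that ends proliferation, went the same way as the replication genes (adult effect 0.39 ± 0.13, disc effect -0.48 ± 0.12).

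Without wild-type disc 5 the disc side of this pattern shrank. The list then had 23 called interactions (42.6%, against 27.7% of all genes), 18 of them adult only, none disc only and 3 opposite, with a median disc effect of -0.22, and 11 members were called lower in discs. The 3 proliferation markers PCNA, stg and CycB summed to 619 to 698 CPM in amos discs and 780 to 1010 CPM in wild-type discs, and to 3.96 to 4.31 CPM in amos antennae and 4.94 to 5.53 CPM in wild-type antennae. Their sum was lower in amos at both stages, but in antennae the members differed. PCNA was higher there, at 3.16, 2.91 and 2.91 CPM in amos against 2.1, 2.64 and 2.35 CPM in wild type. In antennae stg and CycB were lower in every amos library than in every wild-type one.

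**Figure D4:**
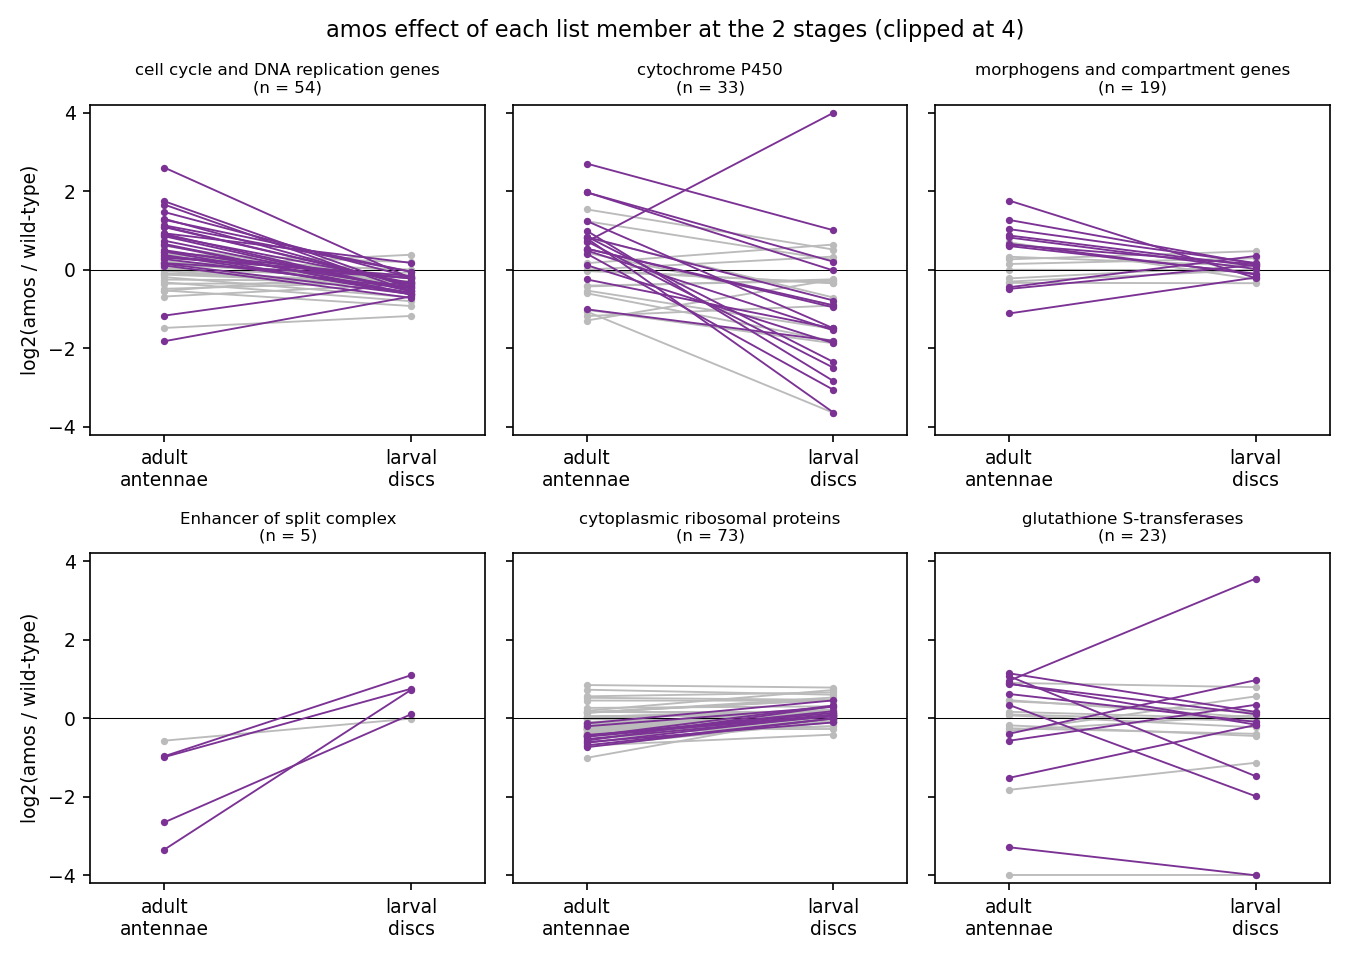
Amos effect of each measured member of 6 lists in adult antennae (left of each panel) and larval discs (right), as log2(amos / wild-type), with values beyond 4 drawn at 4. Each line is a gene, purple where the interaction was called and grey where not. Cell cycle lines have a median of 0.24 in antennae and -0.34 in discs, and morphogen lines gather near 0 in discs.

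Among detoxification enzymes, the called interactions of cytochrome P450 genes were higher with 1 exception, while those of glutathione S-transferases went both ways. Of 33 cytochrome P450 genes measured at both stages 17 (51.5%) were called, beside 25.7% of all genes, 16 higher and 1 lower (16.3% and 9.39% of all genes). Their median effects were 0.44 in antennae and -0.91 in discs over the 33 genes. In discs 17 of the 33 were called lower in amos (11.1% of all genes) and 2 higher, and 6 were in opposite directions, 3 disc only and 1 adult only. Without wild-type disc 5 the count was 16, 5 of them opposite, and the median disc effect -0.49. Most were scarce in discs, with a wild-type median of 2.55 CPM against 45.4 CPM in antennae, and 7 were below 1% of their antennal level. Cyp4d20 was at 258, 256 and 283 CPM in amos antennae and 172, 156 and 154 CPM in wild-type antennae, and at 0.298, 0.455 and 0.455 CPM in amos discs and 2.15, 2.86 and 1.89 CPM in wild-type discs (difference 3.22 ± 0.23, adjusted p = 8.42e-06). Cyp311a1 had a difference of 3.83 ± 0.47 and Cyp6a20 one of 1.44 ± 0.19.

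Cyp4e2 was the exception among the P450 genes, rising at both stages but by far more in discs. It was at 86.0, 72.3 and 80.8 CPM in amos discs and 1.04, 2.76 and 0.975 CPM in wild-type discs, and at 1507, 1402 and 1396 CPM in amos antennae and 865.9, 833.1 and 917.4 CPM in wild-type antennae (difference -4.93 ± 0.37, adjusted p = 1.19e-05, or -5.65 without wild-type disc 2). So the gene was within 2-fold between genotypes in the adult and many-fold apart in the larva.

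Of 23 glutathione S-transferase genes 11 (47.8%) were called, beside 25.7% of all genes, 7 higher and 4 lower (16.3% and 9.39% of all genes). The same counts were found without wild-type disc 5. GstD1 fell in amos antennae, to 1329, 1209 and 1398 CPM against 1946, 1838 and 2069 CPM in wild type, and rose in amos discs, to 800.8, 789.8 and 818.7 CPM against 633.2, 617.1 and 647.6 CPM in wild type (difference -0.92 ± 0.11, adjusted p = 0.000248). GstD9 was lower in amos discs only, at 23.7, 18.1 and 15 CPM against 62.5, 53.0 and 110 CPM (difference 2.33 ± 0.35), and GstS1 higher in amos antennae only, at 128, 136 and 142 CPM against 86.8, 87.9 and 89.8 CPM (difference 0.71 ± 0.11). Of 11 UDP-glycosyltransferase genes 5 (45.5%) were called, beside 25.7% of all genes. Ugt35A1 had 347, 318 and 385 CPM in amos antennae against 127, 123 and 125 CPM in wild-type antennae, and 1.90, 1.47 and 0.888 CPM in amos discs against 3.46, 2.66 and 13.7 CPM in wild-type discs, a difference of 3.71 ± 0.70 that was 2.5 without wild-type disc 5.

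The 5 opposite-direction genes with the highest positive differences, by the same naming rule, were higher in amos antennae and lower in amos discs. CG15431 was at 46.9, 62.0 and 39.7 CPM in amos antennae and 14.5, 13.3 and 13.1 CPM in wild-type antennae, and at 0.458, 0.289 and 0.0866 CPM in amos discs and 7.63, 5.85 and 9.13 CPM in wild-type discs (difference 6.62 ± 0.48, adjusted p = 8.42e-06). Gba1b, a glucocerebrosidase gene of sphingolipid breakdown, was at 18.6, 15.6 and 20.9 CPM in amos antennae against 4.58, 4.56 and 4.40 CPM in wild-type antennae, and at 0.550, 0.228 and 0.563 CPM in amos discs against 4.21, 4.34 and 4.32 CPM in wild-type discs (difference 5.28 ± 0.36). Its wild-type level lay between 4.21 and 4.58 CPM over both stages. CG30427 had a difference of 4.84 ± 0.33, Qsox2, a sulfhydryl oxidase gene, one of 4.51 ± 0.69 (3.76 without wild-type disc 5), and CG8854 one of 4.02 ± 0.86 (2.79 without it).

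The reverse order, lower in amos antennae and higher in amos discs, was led by Mec2, which encodes a stomatin-family membrane protein. It was at 0.632, 0.425 and 0.183 CPM in amos antennae and 9.21, 7.82 and 6.47 CPM in wild-type antennae, and at 5.94, 6.2 and 5.26 CPM in amos discs and 2.71, 2.93 and 1.92 CPM in wild-type discs (difference -5.43 ± 0.47, adjusted p = 3.83e-05). CG13654, CG17919 and CG12560 had differences of -3.69 ± 0.22, -3.57 ± 0.19 and -3.53 ± 0.41. ATP8B, a phospholipid flippase gene needed for odorant responses, was at 95, 139 and 145 CPM in amos antennae against 464, 452 and 490 CPM in wild-type antennae, and at 23.5, 29.5 and 21.5 CPM in amos discs against 12.2, 15.9 and 17.1 CPM in wild-type discs (difference -2.61 ± 0.25).

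Among genes that moved in the same direction by unequal amounts, 5 were nearly absent from amos discs. Mrp5, an ABC transporter gene, was at 0.275, 0.207 and 0.0216 CPM in amos discs and 18.3, 18.9 and 16.6 CPM in wild-type discs, and at 6.71, 12.0 and 5.57 CPM in amos antennae and 32.7, 34.4 and 34.2 CPM in wild-type antennae (difference 4.66 ± 0.60). GstE1 was at 0, 0.0414 and 0 CPM in amos discs, at most 2 reads in a library, against 22.8, 22.5 and 54.4 CPM in wild-type discs, yet at 12.9, 12.6 and 14.9 CPM in amos antennae against 137, 120 and 136 CPM in wild-type antennae. CG33509 and its neighbour ppk13, an ion channel gene, were likewise at 0 to 0.0620 CPM in amos discs and at 14.0 to 89.2 CPM in wild-type discs. For ppk13 the call was lost with the voom test. Map205, given above, was the fifth, and its interaction was no longer called without amos antenna 2.

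Other genes fell further in antennae than in discs. Sp1, the zinc-finger relative of btd, was at 17.0, 18.8 and 11.4 CPM in amos antennae and 625, 651 and 627 CPM in wild-type antennae, and at 65.5, 79.8 and 78.0 CPM in amos discs and 95.5, 105 and 118 CPM in wild-type discs (difference -4.82 ± 0.22, adjusted p = 1.06e-06). DIP-alpha, an immunoglobulin surface protein gene of synaptic partner choice, was at 1.11, 1.05 and 1.19 CPM in amos antennae and 34.2, 46.7 and 45.7 CPM in wild-type antennae, and at 4.95, 4.98 and 6.26 CPM in amos discs and 7.67, 8.18 and 9.85 CPM in wild-type discs (difference -4.57 ± 0.23). The adjacent organic cation transporter genes Orct and Orct2 had differences of -3.27 ± 0.20 and -2.76 ± 0.18.

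The counts of ribosomal protein and respiratory genes moved with the processing and when wild-type disc 5 was left out. Of 73 cytoplasmic ribosomal protein genes 13 (17.8%) were called, below the 25.7% of all genes. All 13 were lower (9.39% of all genes) and 11 were in adult antennae only (13.1% of all genes). Without that library 40 (54.8%) were called, beside 27.7% of all genes. DESeq2 called 23, and 2388 of all 7605 genes, and ribosomal protein scaling, which centres on these genes, gave 1. RpL17 was at 292, 323 and 278 CPM in amos antennae and 500, 529 and 412 CPM in wild-type antennae. Its difference of -0.68 ± 0.18 was not called without wild-type antenna 6, with ribosomal protein scaling or with the replicate number as a block. Of 66 nuclear genes of oxidative phosphorylation 12 (18.2%) were called, also below the 25.7% of all genes, 2 higher and 10 lower (16.3% and 9.39% of all genes). DESeq2 called 15, and 26 (39.4%) were called without wild-type disc 5, beside 27.7% of all genes. The list's median difference of -0.14 turned to 0.13 with ribosomal protein scaling. ND-39, a subunit of complex I, was in opposite directions, with 398, 430 and 440 CPM in amos antennae against 628, 602 and 540 CPM in wild-type antennae, and 154, 170 and 154 CPM in amos discs against 121, 114 and 123 CPM in wild-type discs (difference -0.90 ± 0.11). Of the 11 mitochondrially encoded genes none had a called interaction with edgeR, DESeq2 or voom, 1 had one with ribosomal protein scaling and 1 had an unadjusted p below 0.05, while 9 fell in amos antennae and 8 in amos discs, with median effects of -4.74 and -5.37 between strains whose background also differed.

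Cuticle, muscle and stress genes gave smaller lists. Of 16 chitin genes 9 (56.2%) were called, beside 25.7% of all genes, 5 higher and 4 lower (16.3% and 9.39% of all genes). The chitin deacetylase gene serp was at 120, 99.1 and 160 CPM in amos antennae and 209, 219 and 221 CPM in wild-type antennae, and at 262, 280 and 328 CPM in amos discs and 199, 183 and 191 CPM in wild-type discs (difference -1.38 ± 0.21). The chitinase gene Cht6 rose in antennae only (difference 1.23 ± 0.20). Of 19 sarcomere genes 9 (47.4%) were called, beside 25.7% of all genes, 8 of them higher (16.3% of all genes). Without wild-type disc 5 there were 5 (26.3%), near the 27.7% of all genes. The interval of 1 stage was too wide in 7. The summed muscle markers given above were higher in amos antennae and lower in amos discs, each beside wild type, and their part in these calls was not tested.

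Ldh, lactate dehydrogenase, rose in amos antennae only, at 63.7, 69.8 and 95.4 CPM against 12.3 to 13.2 CPM in wild-type antennae and 12.9 to 20.6 CPM over the disc libraries (difference 2.38 ± 0.25, adjusted p = 0.000129). The inducible chaperone gene Hsp68 rose in antennae only (difference 2.33 ± 0.26), and so did the yellow-family gene yellow-e (difference 1.59 ± 0.23).

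**Figure D5:**
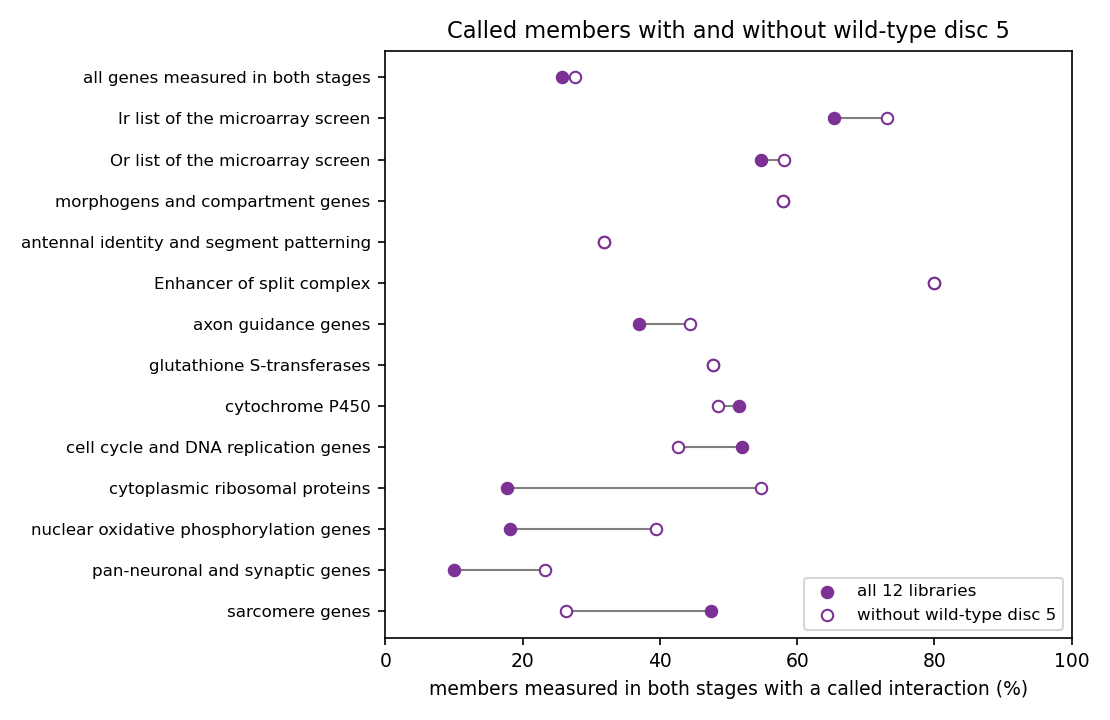
Percentage of measured list members with a called interaction in all 12 libraries (filled) and without wild-type disc 5 (open). Patterning, Enhancer of split and glutathione S-transferase lists do not move, ribosomal proteins go to 54.8% when the library is left out, against 17.8% with it, and sarcomere genes to 26.3%, against 47.4%.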

How the data were processed

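The deposited files hold, per the labels, whole-number read counts per gene, 1 file a library, with no normalization. The submitters' processing notes name cutadapt 1.2.1, TopHat2 2.0.9, HTSeq 0.5.4p3 and the fly genome build BDGP5, while the study's methods give other versions and a later annotation for part of these data, so build-dependent coordinates were not used. Strand and overlap settings are not given in the sources used here, so reads of overlapping or antisense genes may be shared. Antennae were broken off frozen adults and discs dissected. The 5 rows that name no gene (unplaced, ambiguous or multiply aligned reads, 17.9 to 33.1% of a library) were left out, and 15682 genes remained, 15002 with a symbol in the annotation used.

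Counts were analysed with edgeR 4.0.16 in R 4.3.3 (tables with pandas 2.3.3, plots with matplotlib 3.10.9): trimmed mean of M-values (TMM) scaling, the filterByExpr filter over the 4 groups, 1 quasi-likelihood fit of all 12 libraries by group, contrasts of amos minus wild type in adults, in discs and their difference, and Benjamini-Hochberg adjustment over the 10319 genes kept, called below 0.05. SEs and 95% intervals are Wald values of the fit, and CPM use the TMM-scaled library size, except for tissue markers (the summed lists and Sgs3), which use all reads on genes. A count of 0 allows at most 3 reads, 0.0597 to 0.119 CPM in these libraries, and such limits cover counting error only.

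Groups and replicate numbers came from the sample titles. The sources call the 3 samples of a group replicates, and p-values measure the spread between them, as 1 value per gene shared by the 4 groups. The groups spread unequally (biological coefficient of variation 6.6% in wild-type antennae, 32.2% in wild-type discs), so disc intervals can be too narrow and adult ones too wide. Separate fits per stage gave 1175 disc calls, against 2060, and 4573 adult calls, against 3974. Fits with DESeq2 1.42.0, voom of limma 3.58.1, other scalings (total count, ribosomal protein reads), other filters, separate fits per stage, removal of a gene length trend, each replicate left out and the replicate number as a block were alternatives. The members, the 41 gene lists and the 2 microarray lists were chosen with earlier results of these data known. Named genes were, in each class, the 5 with the largest difference in each direction with at least 50 mean counts and no overlap between genotypes in each called stage, up to 4 per list by interaction p, and markers the sources name. Other genes were chosen after their values were seen. Sequences were not used here.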

Additional observations from a re-analysis of the deposited data

Results flagged for a closer look

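The amos effect differed between adult antennae and larval discs for 2302 genes, tested by the interaction term itself (edgeR, adjusted p below 0.05), and 241 genes were called in opposite directions at the 2 stages. The 10 genes below had the largest differences, 5 in each direction, among those of the 241 that passed 2 filters. These were at least 50 mean counts and no overlap between genotypes at either stage. The 3 amos libraries thus lay on opposite sides of the 3 wild-type libraries at the 2 stages by selection. Differences are on the log2 scale. Mec2 had -5.43, E(spl)m7-HLH -4.07, CG13654 -3.69, CG17919 -3.57 and CG12560 -3.53, all lower in amos antennae and higher in amos discs. CG15431 had 6.62, Gba1b 5.28, CG30427 4.84, Qsox2 4.51 and CG8854 4.02, all higher in amos antennae and lower in amos discs. Each of the 10 kept a called interaction, with the same sign, when any single library was left out. The adjusted p-values of these 10 interactions were between 2.65e-06 (CG17919) and 0.00864 (CG8854). The opposite directions were less stable. In separate edgeR fits per stage the disc effect was not called for E(spl)m7-HLH, CG17919, CG12560 and CG8854 (adjusted p = 0.0824, 0.0841, 0.0828 and 0.0945). Of the 241 genes, 108 (44.8%) were in opposite directions with those fits. For Qsox2 and CG8854 the highest wild-type disc level was that of wild-type disc 5, and the cause of that was not tested. CG8854 was at 0.573, 0.476 and 0.216 CPM in amos discs and at 1.08, 0.807 and 4.32 CPM in wild-type discs. No formal test for outlying samples was run on these groups of 3 libraries.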

How the results depend on the processing

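With 3 libraries a group, and 1 wild-type disc library that stands apart, the counts below are uncertain. Of the 105 named genes with a called interaction, none changed sign under any alternative run, and all kept the call with DESeq2 (104 tested), total count scaling and no filter. Most of the 105 were named for a large difference or a small interaction p in the same counts. Their stability was thus likely beforehand and does not carry over to other genes. Ribosomal protein scaling lost 8 (numb, inv, RpS26, RpL6, RpL17, RFeSP, loco and elav) and voom 3 (ppk13, Cda5 and Ir76b). Counts of genes for antennae only and discs only are here those that include genes also called in the other stage within 2-fold. Leaving out 1 library in turn gave 1663 to 2409 interaction calls (2302 with all), 2928 to 4506 adult calls (3974), 1286 to 2175 disc calls (2060), 844 to 1368 genes for antennae only (1211), 282 to 484 for discs only (451) and 138 to 262 in opposite directions (241). Disc calls were lowest without amos disc 1 (1286) and amos disc 3 (1300). The disc-only and opposite counts were lowest without wild-type antennae 5 (291 and 158) and 6 (282 and 153) and amos discs 1 (289 and 142) and 3 (285 and 138), where fewer samples enter. Separate fits per stage gave 1175 disc calls and 140 genes in opposite directions, and a 1.5-fold bound 279 genes for discs only. Separate fits give no interaction test, so that alternative was not run for the interaction.

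Replicate numbers 1 to 3 are shared by amos antennae and amos discs, and numbers 1, 2 and 5 in part by the others. Whether they pair the samples could not be decided from 3 libraries a group. Deviations of same-numbered amos antennae and discs correlated at 0.316, 0.198 and 0.0605, and those of wild-type number 5 at -0.189. Differently numbered amos antennae and discs correlated at -0.23 to 0.0847, and not every sample correlated best with its own number. With the replicate block the interaction was called for 1045 genes, with 403 for antennae only, 194 for discs only and 170 in opposite directions. In wild type only number 5 was shared by an antenna and a disc library. The wild-type stage difference in this fit thus came from that pair alone, which includes wild-type disc 5. Little replication was left, so the lower counts cannot be told apart from the loss of libraries. Of the 105 named genes 26 lost the call. These were PCNA2, alpha-Est10, Bbd, dac, dpp, insc, caps, GstS1, Hsp68, yellow-e, Cht6, elav and RpL17. Also lost were Spase12, Ir40a, Ir76a, Ir76b, dve, NetB, sls, Ugt302C1, Ugt36A1, RpL34b, RpS26, RpL6 and RFeSP. An added filter at 1% of the other stage's level, chosen after seeing the data, gave 2131 interaction calls. Other alternatives stayed within 1.5 times the counts above. Genes at a few reads in discs, such as most odorant receptors, are limited by depth.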

Other observations

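Among genes of the entry to the secretory pathway, which no list had covered, all called interactions were lower in amos antennae relative to discs. The 52 genes, chosen after their values were seen (the signal recognition particle, the Sec61 translocon, signal peptidase, oligosaccharyltransferase, endoplasmic reticulum chaperones and COPII coat), get no test of the group for that reason. Of the 52, 32 had a called interaction (61.5%, beside 25.7% of all genes), all 32 lower (9.39% of all genes), 22 fell and 1 rose in amos antennae (14.8% and 25% of all genes), and 20 rose and none fell in amos discs (11.4% and 11.1% of all genes; edgeR). The median effect was -0.21 in antennae and 0.39 in discs, with 12 genes affected in antennae only, 9 in discs only and 6 in opposite directions. Without wild-type disc 5, 37 were called lower. With ribosomal protein scaling 11 were called lower, 8 fell in amos antennae and 6 rose in amos discs.

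Sec61gamma, a subunit of the translocon, was at 56.3, 52.0 and 53.1 CPM in amos antennae and 68.8, 70.6 and 71.1 CPM in wild-type antennae, and at 199, 173 and 217 CPM in amos discs and 116, 113 and 113 CPM in wild-type discs (difference -1.17 ± 0.11). Spase12, a signal peptidase subunit, differed in discs only, at 80.6, 69.3 and 87.9 CPM in amos and 34.3, 32.8 and 25.6 CPM in wild type (difference -1.28 ± 0.22). CaBP1, a protein disulfide isomerase, differed in antennae only, at 63.8, 60.2 and 83.0 CPM in amos and 155, 142 and 155 CPM in wild type (difference -1.41 ± 0.19), and so did Manf, an endoplasmic reticulum stress protein (difference -1.35 ± 0.20). In discs the salivary gland genes Sgs3 and Sgs4 were also higher in every amos library, with 161, 133 and 131 CPM of Sgs3 in amos discs against 9.80, 31.9 and 6.94 CPM in wild-type discs. Their part in the disc values was not tested, and in antennae both genes were at 0 to 0.0779 CPM in every library.

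Among genes of the antennal sensory apparatus, a10 and Os-C, which encode abundant secreted antennal proteins, had differences of 1.70 ± 0.16 and 1.14 ± 0.18. a10 was at 28570, 25910 and 27530 CPM in amos antennae and at 9442, 9924 and 10250 CPM in wild-type antennae. The Ir co-receptor gene Ir76b was at 475, 537 and 523 CPM in amos antennae against 209, 205 and 189 CPM in wild-type antennae and below 1 CPM in every disc library. Ir40a, a receptor of the sacculus, rose at both stages, in discs to 2.77, 2.07 and 1.65 CPM against 0.261, 0.235 and 0.292 CPM (difference -1.94 ± 0.28). Ir76a rose in amos antennae, at 117, 113 and 93.3 CPM against 51.0, 49.7 and 48.5 CPM, and fell in amos discs, at 7.42, 2.32 and 7.14 CPM against 15.8, 15.2 and 20.1 CPM (difference 2.71 ± 0.45). unpg, a homeobox gene, fell in antennae to 0.211, 0.201 and 0.244 CPM, against 19.2, 21.5 and 18.6 CPM, and was at or below 0.260 CPM in all discs.

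Calls were spread unevenly over the chromosomes. Of the genes measured at both stages, those called at both stages in the same direction were 9.67% of genes on 2L, 10.5% on 2R, 7.39% on 3L, 8.76% on 3R and 4.09% on the X. On the small chromosome 4 the share was 1.35%, which is 1 of 74 genes. Interaction calls were 25 to 29.1% on the arms of chromosomes 2 and 3, 19.6% on the X and 24.3% on 4. These shares are a description with no test.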
